A study of Homo sapiens with 6 samples.

Results

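YAP-TEAD signalling was followed through 10 of its genes in ACHN, an established line of human renal cancer cells, transfected with an siRNA against OTUD1. The 10 genes were chosen by name from the 58735 rows of the count table, with earlier results of these data known. Each name matched 1 row. They are the coactivator genes YAP1 and WWTR1, the DNA-binding partner TEAD1, the kinase LATS2, the scaffolds AMOTL2 and AJUBA, and the target genes ANKRD1, CYR61, CTGF and AXL. RNA was sequenced from 3 libraries of cells given the OTUD1 siRNA (labelled si01) and 3 libraries of cells given a control siRNA (labelled NC), with no time point or dose stated in the labels. OTUD1 encodes a deubiquitinase. Both groups are the same cell line in the same medium, and both were transfected. Only 1 siRNA against OTUD1 was used, so effects of lower OTUD1 and other effects of that siRNA cannot be told apart. The labels name no separate cultures, so a p-value here reflects only how far these particular samples spread, and that spread may be technical.

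The Hippo pathway is a kinase cascade. The MST kinases (genes STK3 and STK4) with their scaffold SAV1 activate the LATS kinases, which act with MOB1 adaptors. LATS kinases phosphorylate the coactivators YAP and TAZ (gene WWTR1), which then stay in the cytoplasm or are degraded. Unphosphorylated YAP and TAZ enter the nucleus and bind TEAD proteins at genes such as CTGF, CYR61 and ANKRD1, and at LATS2 and AMOTL2, whose products restrain YAP in a feedback loop. In kidney cells this signalling responds to cell density, shape and matrix stiffness. The counts measure mRNA, not the phosphorylation or location of YAP and TAZ.

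TEAD proteins recognise the letters GGAATG, and the promoters of CTGF and ANKRD1 are shown because they hold this motif in several copies while the 2 genes moved in opposite directions. The sequences are from RefSeq (GRCh38.p14), 250 bases before to 50 bases after the annotated start, on the strand of the gene, with GGAATG or its reverse complement CATTCC in capitals. CTGF (RefSeq name CCN2, chr6:131951323-131951622, minus strand) holds 3 copies, whose first bases lie at -169, -104 and -95 from the start. ANKRD1 (chr10:90921038-90921337, minus strand) holds 2 copies, at -220 and -128.
CTGF: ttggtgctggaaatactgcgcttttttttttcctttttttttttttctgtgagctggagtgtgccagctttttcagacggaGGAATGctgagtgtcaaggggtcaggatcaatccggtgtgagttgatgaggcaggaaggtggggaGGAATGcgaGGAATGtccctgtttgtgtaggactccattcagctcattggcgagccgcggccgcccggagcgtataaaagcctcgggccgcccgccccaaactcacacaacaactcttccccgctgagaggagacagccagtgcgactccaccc
ANKRD1: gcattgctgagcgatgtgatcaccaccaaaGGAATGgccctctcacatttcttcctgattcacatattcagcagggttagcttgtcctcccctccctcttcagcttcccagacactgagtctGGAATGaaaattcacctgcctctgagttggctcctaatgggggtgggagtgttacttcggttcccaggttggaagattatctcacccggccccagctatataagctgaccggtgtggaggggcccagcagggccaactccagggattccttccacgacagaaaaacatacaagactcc

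The promoter table held 12 promoters for 8 of the 10 genes, and CYR61 and TEAD1 had no entry. The motif was found on either strand in 7 of the 12 promoters. Of all 35116 promoters in the table, 14.03% held the motif in 1 copy or more, 1.37% in 2 or more and 0.128% in 3 or more. LATS2 had 1 copy just after its start, at position 10, and AMOTL2 had 1 copy before the second of its 2 annotated starts. Stretches of 60 bases around both are shown, since these genes of the feedback loop also moved in opposite directions. YAP1 had 1 copy, AJUBA and AXL had 1 copy at 1 of 2 starts each, and WWTR1 had none at either start. A match is a description of letters and not evidence of binding in these cells.
LATS2 (chr13:21061545-21061604, minus strand): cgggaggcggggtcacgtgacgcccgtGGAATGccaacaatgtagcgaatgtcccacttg
AMOTL2 (chr3:134374484-134374543, minus strand): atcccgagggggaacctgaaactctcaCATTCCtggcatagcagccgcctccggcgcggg

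Total counts were 17243433 to 21013530 in the OTUD1 siRNA libraries and 16753495 to 18993534 in the control siRNA libraries, and 15244 genes passed the filter on low counts, all 10 members among them. Levels below are CPM, counts scaled to the TMM-adjusted library size. OTUD1 mRNA was at 1.28, 0.844 and 1.39 CPM in OTUD1 siRNA libraries, against 3.82, 3.69 and 3.80 CPM in control siRNA libraries (log2 fold change -1.69, SE 0.24, edgeR adjusted p = 4.37e-07). Of the 8 renal epithelial markers, 7 were expressed at tested levels and CDH6 had no count. The summed level of this list was 3179 to 3292 CPM after OTUD1 siRNA and 6496 to 6701 CPM after control siRNA, with 6 genes lower and 1 higher (EPCAM). Most of the sum came from the keratins KRT8 and KRT18, at 1957 and 726 CPM after OTUD1 siRNA and 4112 and 1604 CPM after control siRNA. Leukocyte markers summed to 1.24 to 1.89 CPM after OTUD1 siRNA and 1.49 to 1.64 CPM after control siRNA, with no count of PTPRC or CD3E in any library. Among them CD8A passed as higher, at 0.645 CPM after OTUD1 siRNA and 0.176 CPM after control siRNA (edgeR adjusted p = 0.00485). Its control siRNA libraries held only 1 to 4 counts. CD14 was at 0.898 CPM after OTUD1 siRNA and 1.41 CPM after control siRNA and did not pass. Endothelial markers summed to 0.497 to 0.821 CPM after OTUD1 siRNA and 0.188 to 0.934 CPM after control siRNA, with no count of KDR. Fibroblast markers summed to 12.01 to 14.6 CPM after OTUD1 siRNA and 7.60 to 10.2 CPM after control siRNA. Of these, PDGFRB passed as higher, at 7.96 CPM after OTUD1 siRNA and 4.56 CPM after control siRNA (edgeR adjusted p = 3.75e-05). COL1A1 did not pass, at 5.08 CPM after OTUD1 siRNA and 3.94 CPM after control siRNA. The part of these markers in the values below was not tested. In bulk RNA, fewer cells that express a gene and less RNA per cell cannot be told apart.

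Across the 10 genes, ANKRD1, CYR61 and LATS2 rose and the other 7 fell after OTUD1 siRNA. All 10 passed the test, and in all 10 the 3 OTUD1 siRNA libraries lay apart from the 3 control siRNA libraries. Over all genes tested, 60.4% passed, 29.3% as higher and 31.1% as lower, and 64.5% had groups that did not overlap. The median size of the change was 0.52 on the log2 scale for the 10 genes and 0.32 for all genes. The 10 genes were chosen with earlier results of these data known, so these comparisons describe them and test nothing. All genes also include more weakly expressed ones. With a minimum mean of 5 CPM, 11041 genes were tested, of which 3891 passed as higher and 3895 as lower, a larger share. Scaling by library totals instead of TMM moved the median of all genes to 0.13 and the split of called genes to 6189 higher and 3456 lower, against 4460 higher and 4746 lower with TMM. Under that scaling, 3 of the 10 genes passed as higher and 5 as lower.

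**Figure D1:**
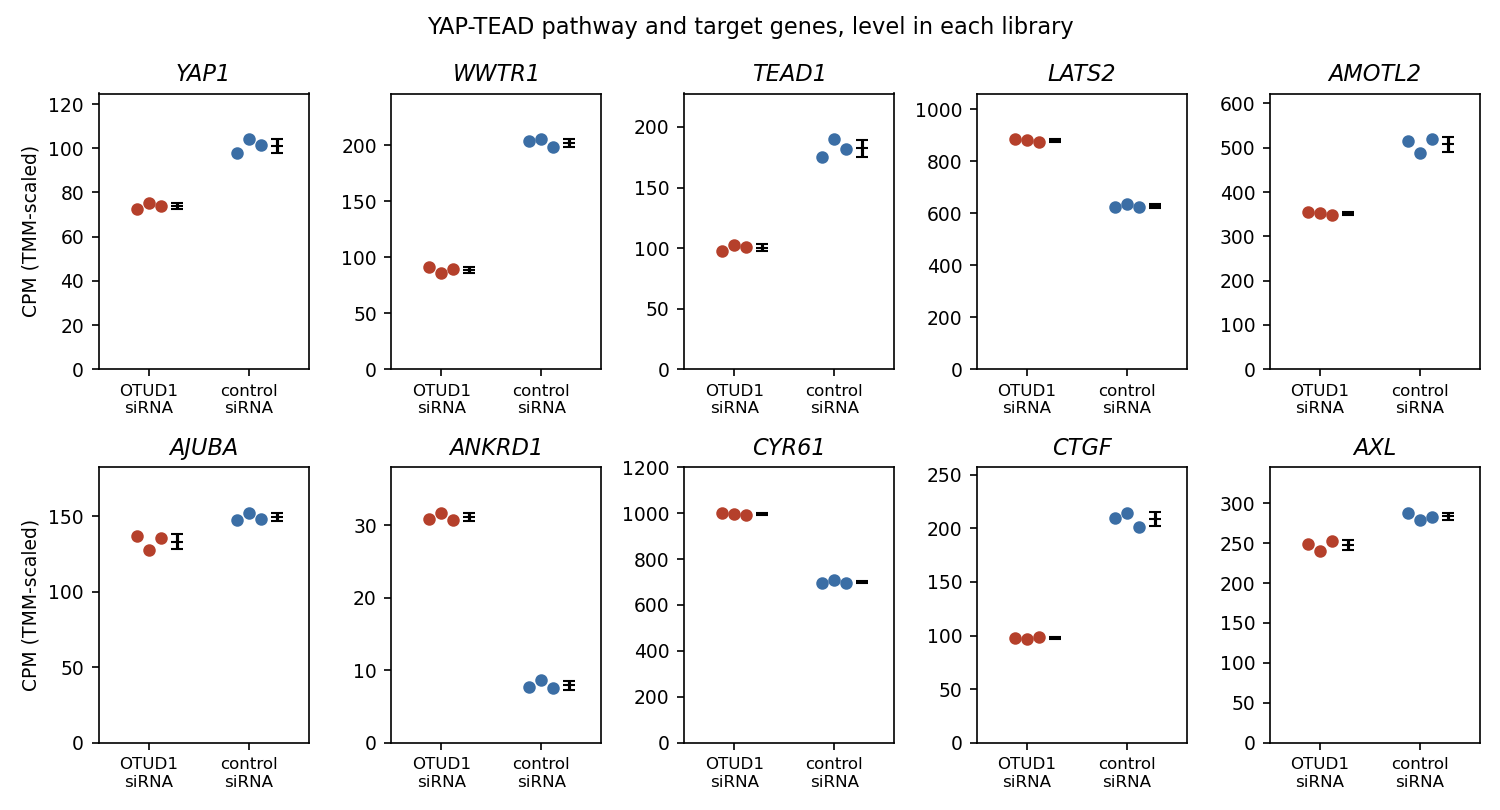
Level of each of the 10 genes in CPM (TMM-scaled) in the 3 OTUD1 siRNA libraries (left) and the 3 control siRNA libraries (right). Each point is 1 library and the bar beside them is the mean with its SD; the vertical axes start at 0 and differ between panels. In every panel the groups lie apart, with ANKRD1, CYR61 and LATS2 higher and the other 7 genes lower after OTUD1 siRNA.

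WWTR1 (ENSG00000018408.14; hg38 chromosome 3, 149517235 to 149736714, minus strand), which encodes TAZ, was at 91.1, 85.6 and 89.9 CPM in OTUD1 siRNA libraries, against 204, 205 and 198 CPM in control siRNA libraries. Every OTUD1 siRNA library was at less than every control library, and the fall was 2.28-fold (log2 fold change -1.19 ± 0.039 SE, adjusted p by edgeR = 1.03e-20). WWTR1 overlaps the antisense gene WWTR1-AS1, which had 120 counts over all libraries, 0.764% of those of WWTR1. YAP1 (ENSG00000137693.13; chromosome 11, 102110461 to 102233423, plus strand), the other coactivator, was at 72.7, 75.2 and 73.9 CPM after OTUD1 siRNA and 97.7, 104 and 101 CPM after control siRNA. Its groups did not overlap either, and it fell 1.37-fold (log2 fold change -0.45 ± 0.044 SE, adjusted p by edgeR = 5.09e-10).

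The balance of TAZ to YAP mRNA was read within each library, where no scaling enters. There were 1.25, 1.14 and 1.22 WWTR1 counts per YAP1 count in OTUD1 siRNA libraries, against 2.08, 1.97 and 1.96 in control siRNA libraries. The ratio was 1.67-fold lower after OTUD1 siRNA (log2 difference -0.74), and the groups did not overlap. The exact two-sided permutation test gave p = 0.1, the smallest that 3 libraries against 3 can reach, and 0.125 after adjustment over the 5 ratios computed. Per length of exon, YAP1 and WWTR1 together were at 22.3 ± 0.161 CPM per kb of exon after OTUD1 siRNA and 40.1 ± 0.7 after control siRNA (SD, n = 3 each). WWTR1 made up 47.3% ± 1.23 of that sum in OTUD1 siRNA libraries and 60% ± 0.81 in control siRNA libraries. With the longest transcript as the length, the WWTR1 shares were 56.3% after OTUD1 siRNA and 68.3% after control siRNA.

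TEAD1 (ENSG00000187079.16; chromosome 11, 12674591 to 12944483, plus strand), the TEAD family member among the 10 genes, was at 97.3, 103 and 101 CPM in OTUD1 siRNA libraries and 176, 189.7 and 182 CPM in control siRNA libraries. All OTUD1 siRNA libraries lay below the controls, a 1.82-fold fall (log2 fold change -0.86, SE 0.04, edgeR adjusted p = 3.38e-17). Among its paralogs, TEAD4 rose 1.19-fold to 74.9 ± 4.91 CPM in OTUD1 siRNA libraries, against 63.2 ± 5.56 CPM in control siRNA libraries (SD, n = 3 each; edgeR adjusted p = 0.000547). The log2 fold change of TEAD4 was 0.25, and 0.38 with library totals. TEAD2 was at 28 ± 0.788 CPM after OTUD1 siRNA and 25.2 ± 1.42 CPM after control siRNA and did not pass (edgeR adjusted p = 0.0621). It did pass as higher with library totals (log2 fold change 0.28), after quantile normalization (0.21), with a minimum mean of 5 CPM (0.20) and without control siRNA replicate 1 (0.20). TEAD3 was at 22.1 ± 1.16 CPM after OTUD1 siRNA and 20.8 ± 0.487 CPM after control siRNA and did not pass (edgeR adjusted p = 0.311), except with library totals (log2 fold change 0.22).

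Per length of exon and with TMM scaling, the 4 TEAD genes summed to 59.4 ± 1.86 CPM per kb of exon in OTUD1 siRNA libraries. The sum was 60.8 ± 1.88 in control siRNA libraries, a difference within the spread between libraries. This likeness depends on the scaling, with TMM factors of 1.045 to 1.046 after OTUD1 siRNA and 0.955 to 0.957 after control siRNA. The sum was not computed with library totals. Under that scaling the log2 fold change of TEAD1 was -0.735, and those of TEAD2, TEAD3 and TEAD4 were 0.28, 0.22 and 0.38. TEAD1 made up 16.4% ± 0.937 of the sum after OTUD1 siRNA and 29.2% ± 1.94 after control siRNA. TEAD4 made up 55.5% ± 1.95 after OTUD1 siRNA and 45.7% ± 2.65 after control siRNA, so it had the highest level of the 4 in both groups. VGLL4, which competes with YAP for TEAD proteins, fell 1.6-fold to 26.6 ± 2.89 CPM in OTUD1 siRNA libraries, against 42.3 ± 0.938 CPM in control siRNA libraries (edgeR adjusted p = 1.43e-09). Its relatives VGLL1, VGLL2 and VGLL3 had no count in any library, where a count of 3 would be 0.137 to 0.188 CPM.

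**Figure D2:**
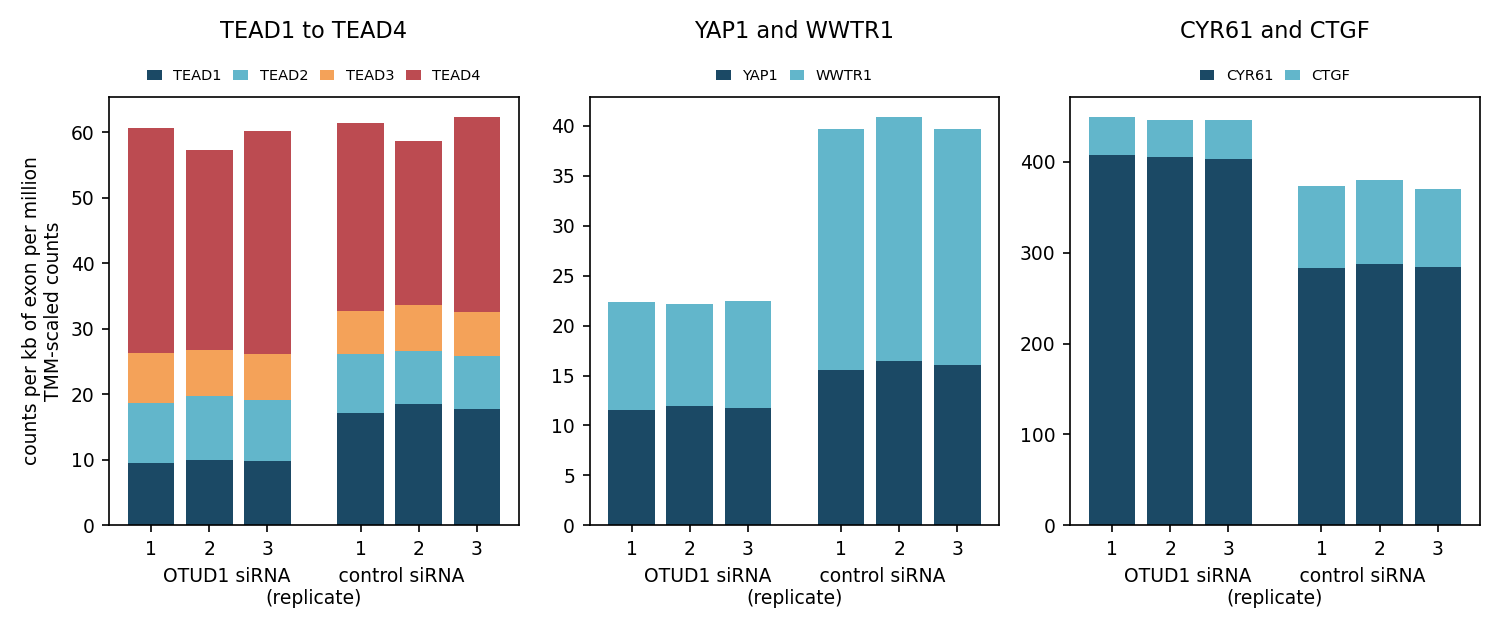
Summed level per length (CPM per kb of annotated exon) of TEAD1 to TEAD4, of YAP1 and WWTR1, and of CYR61 and CTGF, 1 bar for each library, OTUD1 siRNA on the left and control siRNA on the right. With TMM scaling, on which the heights depend, the TEAD bars are of like height, 59.4 after OTUD1 siRNA and 60.8 after control siRNA on average. Their TEAD1 part is smaller after OTUD1 siRNA. The YAP1 and WWTR1 bars are shorter after OTUD1 siRNA (22.3 against 40.1) and the CYR61 and CTGF bars taller (447 against 374).

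LATS2, the kinase that phosphorylates YAP and TAZ, moved the other way. LATS2 (ENSG00000150457.8; chromosome 13, 20973032 to 21061547, minus strand) was at 884, 883 and 872 CPM in OTUD1 siRNA libraries, against 623, 635 and 625 CPM in control siRNA libraries. Every OTUD1 siRNA library was above every control library, and LATS2 rose 1.4-fold (log2 fold change 0.49, SE 0.027, edgeR adjusted p = 2e-15). By contrast, its paralog LATS1 fell 1.29-fold to 20.9 ± 0.802 CPM in OTUD1 siRNA libraries, against 26.9 ± 0.942 CPM in control siRNA libraries (edgeR adjusted p = 9.52e-05). The log2 fold change of LATS1 was -0.36, and -0.23 with library totals. There were 41.3, 41.4 and 43.6 LATS2 counts per LATS1 count after OTUD1 siRNA and 24.0, 23.5 and 22.4 after control siRNA, a 1.8-fold higher ratio (exact permutation p = 0.1, adjusted over 5 ratios 0.125). Per length of exon, LATS2 made up 98.5% of the sum of both kinases after OTUD1 siRNA and 97.3% after control siRNA.

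Of the 10 other core kinases and adaptors tested, 1 rose, 5 fell and 4 did not pass, beside 29.3% higher and 31.1% lower over all genes tested. Their median log2 fold change was -0.19, beside 0.01 for all genes. MOB1A, the adaptor that activates LATS kinases, fell 1.84-fold to 147 ± 5.64 CPM in OTUD1 siRNA libraries, against 270.3 ± 7.03 CPM in control siRNA libraries (edgeR adjusted p = 3.01e-18). The MST scaffold SAV1 fell 1.56-fold to 13.5 ± 1.61 CPM, against 21.01 ± 0.437 CPM in control siRNA libraries. MAP4K4, a kinase that can phosphorylate LATS, rose 1.14-fold to 197 ± 3.84 CPM, against 173 ± 7.68 CPM in control siRNA libraries. Its log2 fold change of 0.19 was 0.32 with library totals and 0.33 after quantile normalization.

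AMOTL2 encodes an angiomotin-like scaffold that holds YAP at junctions and the actin skeleton. AMOTL2 (ENSG00000114019.14; chromosome 3, 134355874 to 134375479, minus strand) was at 355, 353 and 348 CPM after OTUD1 siRNA and 515, 488 and 519 CPM after control siRNA. The groups lay apart, and it fell 1.44-fold (log2 fold change -0.53, SE 0.031, edgeR adjusted p = 8.04e-15). After quantile normalization its log2 fold change was -0.32. The other angiomotins were low, AMOT at 5.30 ± 0.234 CPM after OTUD1 siRNA and 7.06 ± 0.206 CPM after control siRNA (SD, n = 3 each). AMOTL1 was at 4.45 ± 0.672 CPM after OTUD1 siRNA and 5.96 ± 0.927 CPM after control siRNA, with groups that overlapped. AMOT fell 1.33-fold (edgeR adjusted p = 0.00872) and AMOTL1 1.34-fold (edgeR adjusted p = 0.0223). With library totals both lost their calls, at log2 fold changes of -0.28 for AMOT and -0.29 for AMOTL1. AMOTL1 also missed the threshold with DESeq2 (-0.42) and when OTUD1 siRNA replicate 1 (-0.38), OTUD1 siRNA replicate 3 (-0.35) or control siRNA replicate 2 (-0.28) was left out. The ratio of AMOTL2 to AMOTL1 counts was 84.7, 67.7 and 88.2 after OTUD1 siRNA and 90.4, 69.8 and 99.8 after control siRNA, so the groups overlapped (exact permutation p = 0.5).

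AJUBA encodes a LIM-domain scaffold that binds LATS kinases and limits their action on YAP. AJUBA (ENSG00000129474.15; chromosome 14, 22971174 to 22982642, minus strand) was at 137, 127 and 135 CPM in OTUD1 siRNA libraries, against 147, 152 and 148 CPM in control siRNA libraries. The groups lay apart by a narrow margin, and AJUBA fell 1.12-fold (log2 fold change -0.16 ± 0.039 SE, adjusted p by edgeR = 0.000559). The call was lost with library totals (log2 fold change -0.04, edgeR adjusted p = 0.434) and after quantile normalization (-0.05, limma adjusted p = 0.297). Its relatives moved apart. LIMD1 fell 1.96-fold to 32.8 ± 2.84 CPM in OTUD1 siRNA libraries, against 64.0 ± 2.6 CPM in control siRNA libraries (edgeR adjusted p = 4.78e-14). WTIP rose 1.25-fold to 81.2 ± 2.91 CPM, against 65.0 ± 3.89 CPM in control siRNA libraries (edgeR adjusted p = 2.53e-06).

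Of the 13 upstream regulators and YAP inhibitors besides AMOTL2 and AJUBA, 12 were tested, of which 3 rose, 8 fell and 1 did not pass, beside 29.3% higher and 31.1% lower over all genes tested. Their median log2 fold change was -0.42, beside 0.01 for all genes. The phosphatase PTPN14, which binds YAP, fell 1.94-fold to 160 ± 5.72 CPM after OTUD1 siRNA, against 310.3 ± 7.7 CPM after control siRNA. WWC2, of the KIBRA family that activates LATS, fell 1.81-fold to 68.6 ± 0.551 CPM, against 124 ± 5.6 CPM after control siRNA. RASSF1, a scaffold of the MST kinases, rose 1.32-fold to 31.5 ± 0.627 CPM, against 23.8 ± 0.657 CPM after control siRNA. The protocadherin FAT4 rose 1.17-fold, a log2 fold change of 0.22 that was 0.35 with library totals.

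**Figure D3:**
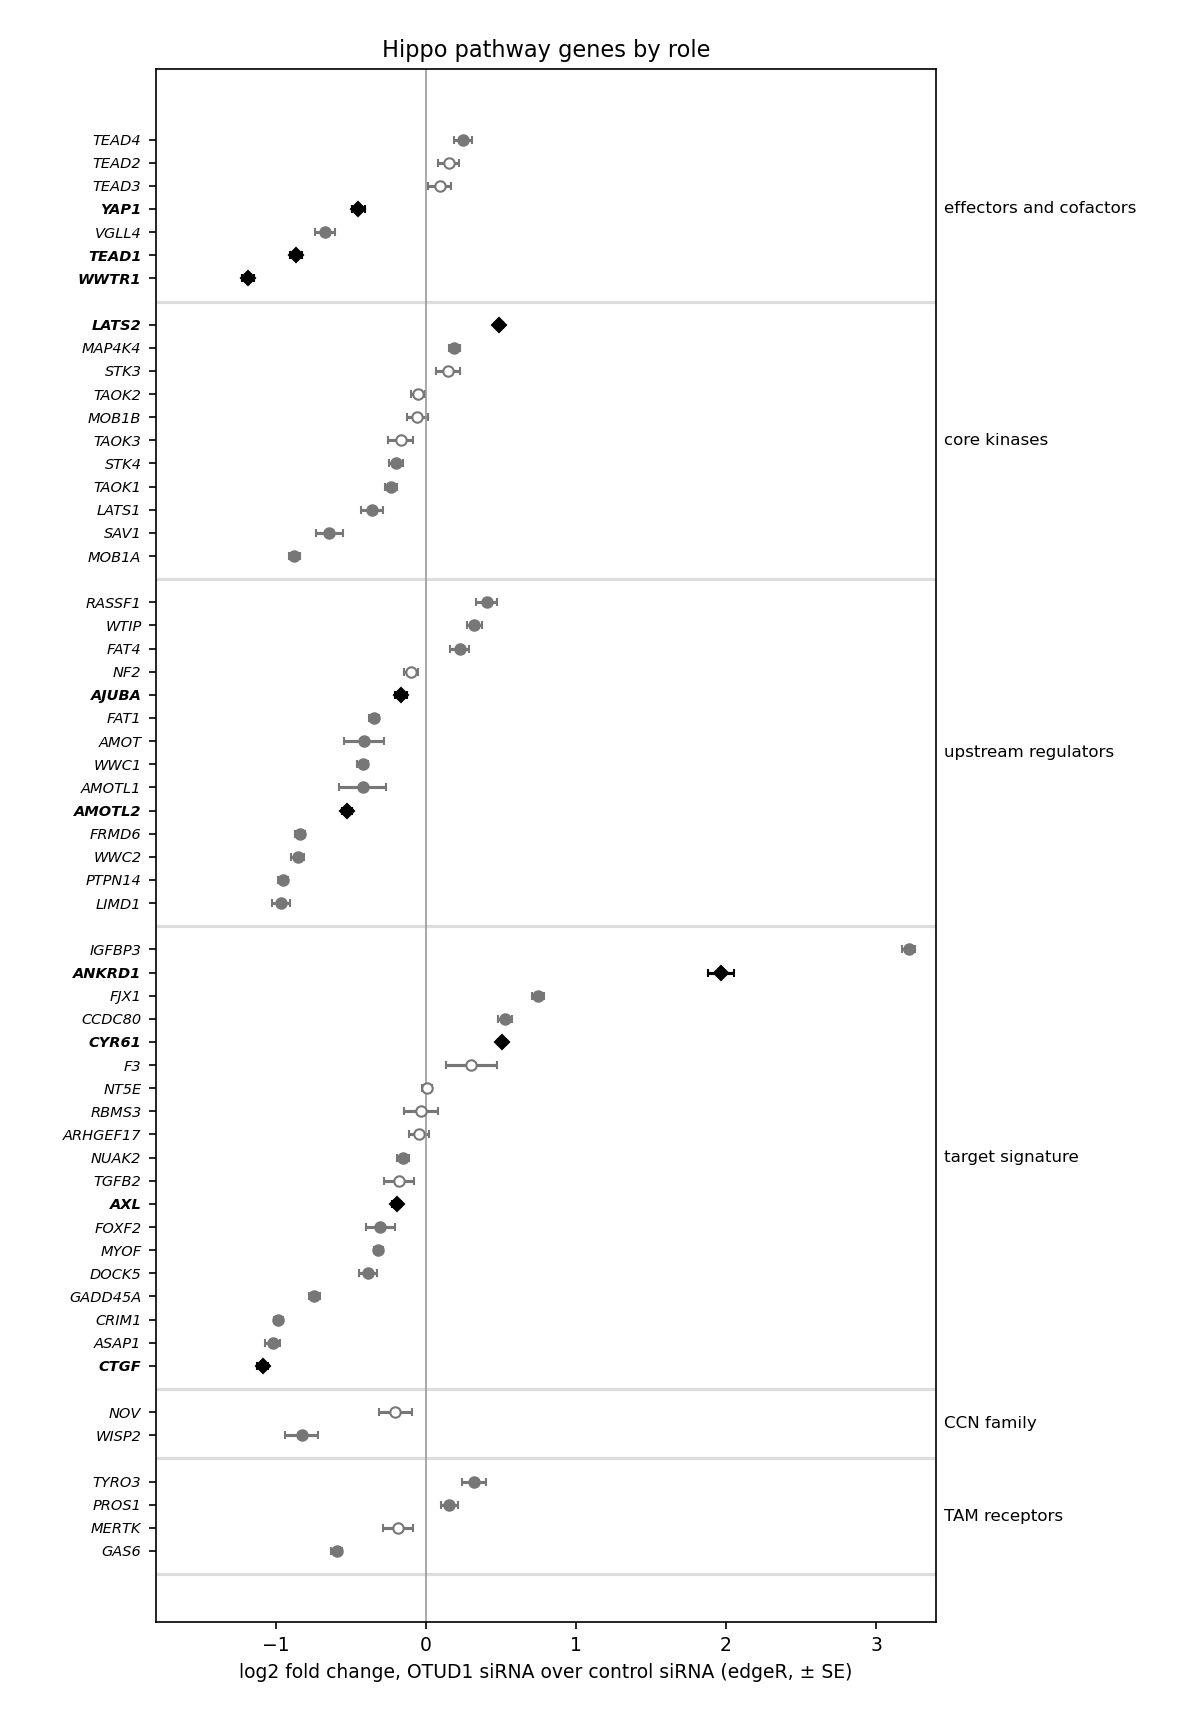
log2 fold change of each tested gene of the lists, OTUD1 siRNA over control siRNA, with its SE (edgeR, TMM scaling), grouped by role. Black diamonds and bold names are the 10 genes described, grey circles the other genes of the lists, and open symbols did not pass the test; a gene on several lists is drawn 1 time. IGFBP3 (3.22) and ANKRD1 (1.97) lie far to the right, while WWTR1 (-1.19), CTGF (-1.09) and ASAP1 (-1.02) lie furthest to the left.

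The target genes split. ANKRD1 encodes an ankyrin repeat protein best known from heart muscle and is among the most used YAP target genes. ANKRD1 (ENSG00000148677.6; chromosome 10, 90912096 to 90921276, minus strand) was at 30.9, 31.7 and 30.7 CPM in OTUD1 siRNA libraries, against 7.63, 8.59 and 7.53 CPM in control siRNA libraries. No library came near the other group. The rise was 3.92-fold (log2 fold change 1.97 ± 0.087 SE, adjusted p by edgeR = 1.36e-17) and rested on 553 to 677 counts per OTUD1 siRNA library and 122 to 156 per control siRNA library. CYR61 (ENSG00000142871.16; chromosome 1, 85580761 to 85583962, plus strand), a secreted matrix protein of the CCN family, was at 1001, 994 and 991 CPM after OTUD1 siRNA and 697, 707 and 697 CPM after control siRNA. All OTUD1 siRNA libraries lay above the controls, and CYR61 rose 1.42-fold (log2 fold change 0.51, SE 0.026, edgeR adjusted p = 5.03e-16).

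CTGF, the other matrix protein of the CCN family, fell instead. CTGF (ENSG00000118523.5; chromosome 6, 131948176 to 131951373, minus strand), which is also a classical target of TGF-beta, was at 97.8, 97.3 and 98.8 CPM in OTUD1 siRNA libraries, against 209.5, 214 and 201 CPM in control siRNA libraries. The groups lay far apart, and the fall was 2.13-fold (log2 fold change -1.09, SE 0.038, edgeR adjusted p = 4.51e-20). AXL (ENSG00000167601.11; chromosome 19, 41219203 to 41261766, plus strand), a receptor tyrosine kinase, was at 248.5, 240.4 and 253 CPM after OTUD1 siRNA and 288, 279.5 and 283 CPM after control siRNA. AXL fell 1.146-fold with no overlap between groups (log2 fold change -0.20, SE 0.033, edgeR adjusted p = 7.61e-06). Its call was lost with library totals (log2 fold change -0.07, edgeR adjusted p = 0.0749) and after quantile normalization (-0.04, limma adjusted p = 0.226).

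Within libraries, the 2 CCN genes moved apart. There were 10.2, 10.2 and 10.0 CYR61 counts per CTGF count in OTUD1 siRNA libraries, against 3.32, 3.30 and 3.46 in control siRNA libraries, a 3.02-fold higher ratio (log2 difference 1.6, exact permutation p = 0.1, adjusted over 5 ratios 0.125). ANKRD1 counts per CTGF count were 0.316, 0.326 and 0.311 after OTUD1 siRNA and 0.0364, 0.0401 and 0.0374 after control siRNA, an 8.36-fold higher ratio with the same p. Neither ratio had overlapping groups, and neither depends on how libraries are scaled. Per length of exon, CTGF made up 9.36% ± 0.0985 of the summed level of both CCN genes after OTUD1 siRNA and 23.8% ± 0.457 after control siRNA.

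**Figure D4:**
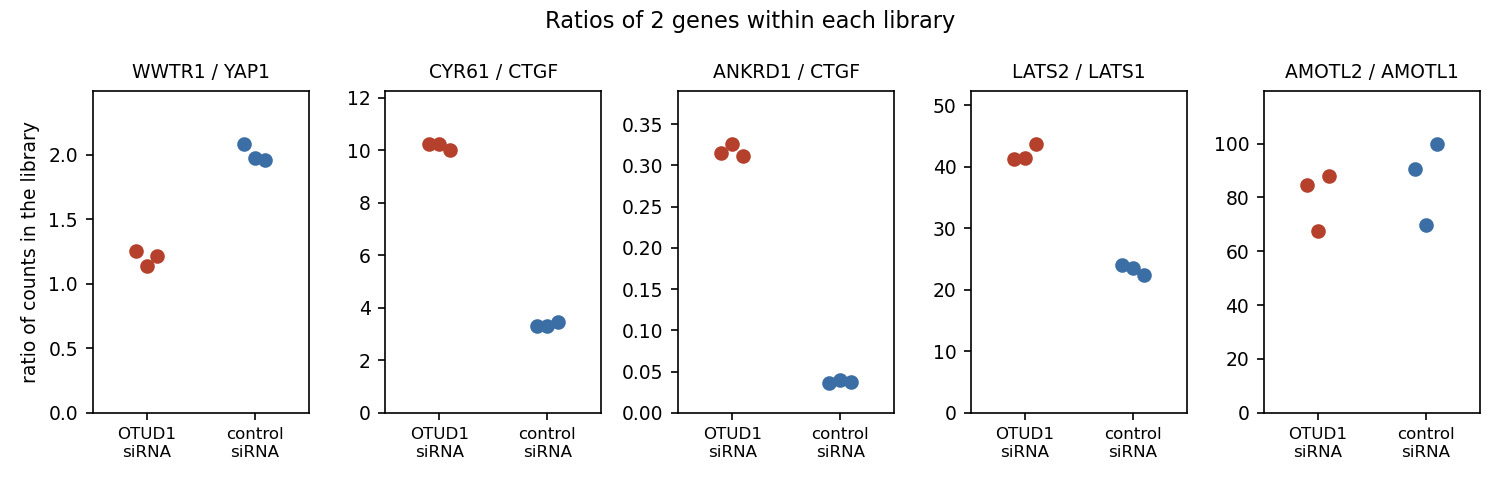
Counts of 1 gene divided by counts of another in the same library, for 5 pairs, with the 3 OTUD1 siRNA libraries on the left and the 3 control siRNA libraries on the right of each panel. The groups lie apart for the first 4 pairs (CYR61 to CTGF at 10.0 to 10.2 against 3.30 to 3.46) and overlap for AMOTL2 to AMOTL1.

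Other members of the CCN family were low. WISP2 fell 1.78-fold to 7.75 ± 0.739 CPM in OTUD1 siRNA libraries, against 13.7 ± 1.09 CPM in control siRNA libraries (edgeR adjusted p = 1.88e-07). NOV was at 13.5 ± 1.92 CPM after OTUD1 siRNA and 15.6 ± 2.04 CPM after control siRNA and did not pass (edgeR adjusted p = 0.104), though it passed as lower when OTUD1 siRNA replicate 2 (-0.33 on the log2 scale) or control siRNA replicate 3 (-0.28) was left out. WISP1 and WISP3 had at most 4 and 7 counts in a library and were not tested. Among the relatives and ligands of AXL, the ligand GAS6 fell 1.51-fold to 134 ± 2.11 CPM, against 202 ± 4.65 CPM in control siRNA libraries (edgeR adjusted p = 1.83e-14). The receptor TYRO3 rose 1.25-fold (edgeR adjusted p = 0.00124) and the ligand PROS1 1.12-fold (edgeR adjusted p = 0.0179), while MERTK, at 11.3 ± 0.318 CPM after OTUD1 siRNA and 12.8 ± 0.554 CPM after control siRNA, did not pass. PROS1 missed the threshold when OTUD1 siRNA replicate 1 (0.11 on the log2 scale) or control siRNA replicate 3 (0.14) was left out. With library totals the log2 fold change of PROS1 was 0.29 in place of 0.16, that of NOV -0.07 in place of -0.20 and that of MERTK -0.06 in place of -0.19.

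A list of 22 genes described as YAP and TAZ targets in other cell types was counted in the same way. All 22 were tested, of which 6 rose, 11 fell and 5 did not pass, beside 29.3% higher and 31.1% lower over all genes tested. Without the 6 genes of the list already described, 3 of 16 rose and 8 fell, with a median log2 fold change of -0.17. IGFBP3, which is secreted and binds insulin-like growth factors, rose 9.3-fold to 392 ± 10.4 CPM in OTUD1 siRNA libraries, against 42.1 ± 2.53 CPM in control siRNA libraries (edgeR adjusted p = 1.65e-29). FJX1, a secreted relative of the fly protein four-jointed, rose 1.67-fold and the matrix protein CCDC80 1.44-fold. CRIM1, a transmembrane protein that binds BMPs, fell 1.98-fold to 351 ± 6.19 CPM, against 695 ± 14.9 CPM in control siRNA libraries (edgeR adjusted p = 1.63e-21). ASAP1, a GTPase-activating protein for Arf proteins, fell 2.03-fold. PTPN14, described above, is also on this list and had the next largest fall. Over all pathway lists, 47 of the 53 genes besides the 10 were tested, of which 10 rose, 23 fell and 14 did not pass. Their median log2 fold change was -0.19. Over all genes tested 60.4% were called, 29.3% as higher and 31.1% as lower. With a minimum mean of 5 CPM, 12 of the list genes rose and 23 fell, beside 3891 higher and 3895 lower of 11041 genes. With library totals 15 of the list genes rose and 18 fell, a shift that all genes showed too, with 6189 higher and 3456 lower.

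Per length of exon, the order of the 10 genes in OTUD1 siRNA libraries was CYR61 (405 ± 2.03 CPM per kb of exon), LATS2 (158 ± 1.14), AMOTL2 (58.8 ± 0.633), AXL (48.0 ± 1.26), CTGF (41.9 ± 0.341), AJUBA (22.3 ± 0.837), ANKRD1 (15.7 ± 0.261), YAP1 (11.7 ± 0.199), WWTR1 (10.6 ± 0.343) and TEAD1 (9.76 ± 0.271). In control siRNA libraries it was CYR61 (285 ± 2.52), LATS2 (112 ± 1.19), CTGF (89.1 ± 2.79), AMOTL2 (84.8 ± 2.76), AXL (55.0 ± 0.808), AJUBA (25.0 ± 0.427), WWTR1 (24.1 ± 0.421), TEAD1 (17.7 ± 0.69), YAP1 (16.0 ± 0.501) and ANKRD1 (4.002 ± 0.295), each as mean ± SD of 3 libraries. CTGF and AMOTL2 overlapped in the control siRNA libraries, at 86.1 to 91.7 and 81.6 to 86.7. With the longest transcript as the length, WWTR1 stood above ANKRD1 and YAP1 after OTUD1 siRNA (17.7, 15.7 and 13.7) and above AJUBA after control siRNA (40.2 against 35.0). By that length AMOTL2 stood above CTGF in the control siRNA libraries without overlap, at 108 to 114.7 against 86.1 to 91.7.

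Genes with the most similar pattern over the 6 libraries were sought among 10482 protein-coding genes with a mean of at least 5 CPM, by the Euclidean distance between centred log2 CPM values. With 2 groups this mostly finds genes of the same fold change. TRIM55, a muscle ubiquitin ligase, was nearest to both CYR61 (distance 0.03) and LATS2 (0.0364), with a log2 fold change of 0.50. ENAH, an actin regulator, was nearest to WWTR1 (0.0631) and SERTAD2 to CTGF (0.0477), with log2 fold changes of -1.19 and -1.11. The nearest gene to ANKRD1, HIST3H2A, lay further off (0.251). The size of the ANKRD1 change stood at the 99.3 percentile of all genes tested.

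**Figure D5:**
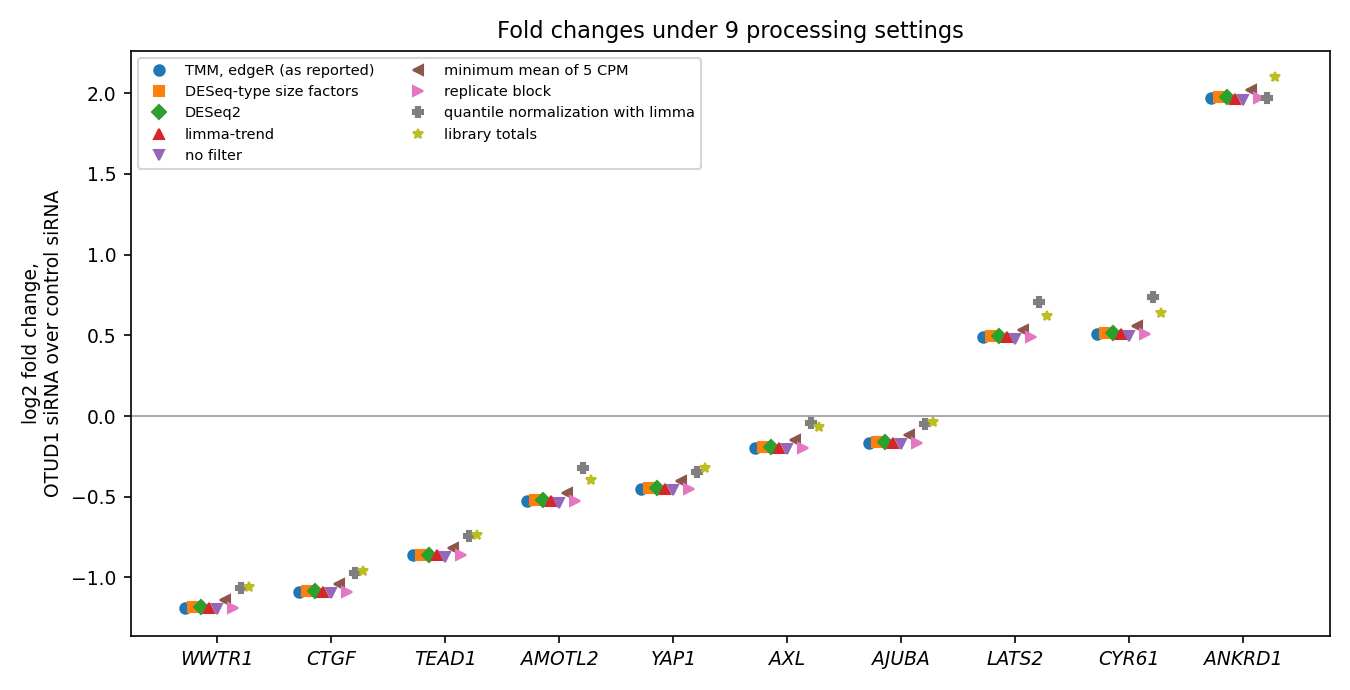
log2 fold change (OTUD1 siRNA over control siRNA) of the 10 genes under 9 processing settings, 1 symbol for each setting. All symbols of a gene lie on the same side of 0; library totals and quantile normalization lie above the other settings for most genes and bring AXL and AJUBA close to 0 (-0.07 to -0.04).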

How the data were processed

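Members and gene lists were chosen with earlier results of these data known. The deposited table gives whole-number counts per gene symbol, although its name speaks of FPKM, and the plan allowed for both units. The build is hg38, per the submitters' processing notes. No source used here gives the aligner, counter, strand setting or annotation, so overlapping antisense genes are uncertain. Libraries came from Trizol-extracted RNA and a directional NEBNext kit, per the labels' protocols.

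The deposited counts were fitted with edgeR 4.0.16 (R 4.3.3). After filterByExpr (10 counts in 3 libraries at the median size, 15 in all) and TMM scaling, the two-sided quasi-likelihood test (glmQLFit, glmQLFTest) compared the groups. P-values were adjusted by Benjamini-Hochberg over every gene in the fit, and 0.05 was the threshold. The SE is the log2 fold change over the root of F. The fit was tested on simulated data. No library was a copy of another: the mean chi-square of a gene's counts was 46.8 to 56.5 between groups and 2.05 to 3.72 within them, above sampling noise. Coordinates and exon lengths are from GENCODE 29. Alternatives covered filter, scaling, DESeq2 1.42.0, limma 3.58.1, replicate block and each library left out.

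Named besides the 10 genes were OTUD1, paralogs of the 10, the 3 largest called changes each way per list, and nearest genes. Not all of these are printed. Floors of 3 counts cover counting error only.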

Additional observations from a re-analysis of the deposited data

How the results depend on the processing

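Over 14 alternatives for each of the 10 genes, 136 of 140 values kept direction and side of the threshold, and the other 4 were AJUBA and AXL with library totals and after quantile normalization. None of the 140 changed direction. Of 644 values for the other tested genes that the naming rule gives, nearest genes included, 18 lost the call, 7 gained it and none changed direction. OTUD1 had no value with a minimum mean of 5 CPM and kept its call in the other 13 alternatives (log2 fold change -1.83 to -1.50). Counts of genes called stayed within 1.5 times of those reported in all alternatives run. The difference between groups in the log2 ratio of AMOTL2 to AMOTL1 (OTUD1 siRNA minus control siRNA) ran from -0.254 to 0.0111 when single libraries were left out. It turned positive without OTUD1 siRNA replicate 2 (0.0111) or control siRNA replicate 3 (0.00344), and the cause was not tested.

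Same-numbered libraries did not deviate together (correlations of -0.0229, 0.0178 and -0.0182). The labels do not state whether the numbers pair the samples. These correlations cannot settle it, since deviations among 3 libraries are partly counting noise. With the replicate number as a block, 4484 genes were higher and 4791 lower, 3 and 7 of them members, and the WWTR1 to YAP1 difference was -0.74 (exact paired permutation p = 0.25, the smallest 3 pairs allow). AMOT, AMOTL1, WISP2 and OTUD1 rest on few counts, which limits their precision.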

Other observations

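The 7-mer CAAACAA was searched in 3′ UTRs because it had marked genes that fell in an earlier reading of these libraries, and it also occurs in the 3′ UTR of OTUD1. It was found once each in the 3′ UTRs of WWTR1, CTGF and CYR61 and in none of the other 7 genes. WWTR1 and CTGF fell, and CYR61 rose. Of the genes that do not carry it, YAP1, TEAD1, AMOTL2, AJUBA and AXL fell, and LATS2 and ANKRD1 rose. The related 7-mer AAACAAA was also searched and was found 1 time each in WWTR1, CTGF and AJUBA, which fell. YAP1, TEAD1, AMOTL2 and AXL, which do not carry AAACAAA, fell too. The share of all genes with AAACAAA was not computed. The CAAACAA sites lie at bases 764, 158 and 32 of UTRs of 3570, 1088 and 920 bases (GENCODE 29 principal transcripts). They are shown with 10 bases on each side and CAAACAA in capitals.
WWTR1: gcattttattCAAACAAaagtttttga
CTGF: tgtgccatgtCAAACAAatagtctatc
CYR61: cacacctagaCAAACAAgggagaagag

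Of 12464 tested genes with a 3′ UTR, 1751 carry the 7-mer CAAACAA, with a median log2 fold change of -0.24, against -0.0042 for genes without it. The 7-mer was picked from these libraries, so this difference restates what picked it and is no independent evidence. Carriers have longer 3′ UTRs (median 2976 bases, against 934), and length was not allowed for. No source used here gives the sequence of the siRNA. Whether either 7-mer has any part in the changes of WWTR1 and CTGF was not tested.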
